A study of Mus musculus with 12 samples.

Results

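The sinusoids of the liver are lined by an endothelium that clears waste from the blood and sends growth signals to the hepatocytes beside it. Here 10 genes of that endothelium are described across whole livers of mice injected with acetaminophen, a painkiller that injures the liver when overdosed. They are the scavenger and identity markers Stab1, Stab2, Lyve1, Clec4g, Oit3 and Fcgr2b, the VEGF receptor Kdr, and the angiocrine (endothelium-derived) factors Bmp2, Wnt2 and Rspo3. They were chosen by symbol, with earlier results of these data known, so setting them beside all genes is a description. Each matched 1 of the 55401 genes in the count table. All 10 passed the filter on low counts that left 17585 genes for testing.

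RNA was sequenced from 12 livers of male mice aged 7 to 10 weeks, in 4 groups of 3. Control mice were Fbxl5F/F, with both copies of Fbxl5 flanked by loxP sites, and FBXL5ΔDC mice were CD11c-Cre/Fbxl5F/F, so that all mice carried the floxed alleles. Cre is driven by the promoter of Cd11c (Itgax), which is active mainly in dendritic cells, and Fbxl5 encodes a subunit of a ubiquitin ligase that senses iron. Each genotype was sampled untreated (0 h) and 6 h after intraperitoneal acetaminophen. The labels name doses of 300 and 500 mg/kg without saying which these livers received. Injected mice had gone 16 h without food and were fed afterwards. For the untreated mice the labels are silent on fasting. The labels do not say whether replicates came from separate litters, so p-values measure only the spread between these samples.

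Liver sinusoidal endothelial cells have open pores and no basement membrane, and they take up denatured collagens, hyaluronan and immune complexes through scavenger and Fc receptors. They hold their specialised state under VEGF from neighbouring cells, and they release BMP2, which drives hepcidin in hepatocytes, and, around the central vein, WNT2 and R-spondin 3, which keep up beta-catenin targets in the pericentral hepatocytes. When the endothelium loses this state it takes on features of capillaries and larger vessels.

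Total counts ran from 67173096 to 72512319 per library. Replicate 3 of the treated control livers stood apart from replicates 1 and 2. Of the 10 members, 8 had their highest treated control value in replicate 3 and above all 6 untreated livers. In replicate 3, 4 members were at or above the lowest treated FBXL5ΔDC liver. These were Lyve1, Bmp2 and Rspo3, and also Wnt2, which was not among the 8. What leaving out treated control replicate 3 does to a call is therefore given beside the results it changes. Mitochondrial genes took 8.94% to 9.43% of counts in treated FBXL5ΔDC livers and 5.32% to 7.05% in the other 9 livers, and the part of this in the changes below was not tested. Fbxl5 itself was at 20.7, 21.96 and 17.6 CPM in untreated control livers and 10.3, 19.8 and 21.4 CPM in untreated FBXL5ΔDC livers, which overlap. Deletion in dendritic cells alone would remove little of a whole liver's Fbxl5 transcript, so these values do not check the genotype.

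The members lie on 8 mouse chromosomes (GRCm38), and each is a protein-coding gene. Stab1 (ENSMUSG00000042286.13) spans bases 31139013 to 31168641 of chromosome 14. Stab2 (ENSMUSG00000035459.18) spans 86841198 to 87008025 of chromosome 10, which also carries Oit3 (ENSMUSG00000009654.4) at 59422958 to 59441778 and Rspo3 (ENSMUSG00000019880.10) at 29452416 to 29535867. Lyve1 (ENSMUSG00000030787.4) lies at 110850607 to 110863239 of chromosome 7 and Clec4g (ENSMUSG00000074491.9) at 3707064 to 3720651 of chromosome 8. Fcgr2b (ENSMUSG00000026656.15) lies at 170958617 to 170976547 of chromosome 1 and Kdr (ENSMUSG00000062960.10) at 75932827 to 75978458 of chromosome 5. Bmp2 (ENSMUSG00000027358.6) lies at 133552159 to 133562885 of chromosome 2 and Wnt2 (ENSMUSG00000010797.6) at 17988940 to 18030585 of chromosome 6. Exons of Stab1, Stab2, Clec4g, Fcgr2b and Rspo3 overlap an exon of a gene on the opposite strand (Nt5dc2, Gm16268, Gm16553, Gm38204 and Gm48159). The strand setting of the counting is not given in the sources used here, so reads of such a pair cannot be told apart. Fcgr2b also shares sequence with the related receptor gene Fcgr3, and how the counting split such reads is not known.

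Untreated control livers expressed the members at unequal levels per length of exon. Clec4g, a C-type lectin, was highest at 11.9 ± 0.489 CPM per kb (SD, n = 3), where CPM scales counts to the library size. Oit3 at 5.67 ± 0.763, Bmp2 at 4.39 ± 0.0774 and Fcgr2b at 3.98 ± 0.658 CPM per kb came next. Stab1 at 3.15 ± 0.497, Stab2 at 3.02 ± 0.496, Kdr at 2.98 ± 0.561 and Lyve1 at 2.002 ± 1.007 CPM per kb followed. Stab1, Stab2 and Kdr differed from each other by less than their spread. Wnt2 at 1.05 ± 0.206 and Rspo3 at 0.744 ± 0.0677 CPM per kb were lowest.

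The upstream sequences of 4 members are shown because they lie directly before the genes of the receptors and the lectin described next. RefSeq (GRCm38.p6) gave an entry for 6 of the 10 members, of which these 4 had at least 150 bases outside the annotated gene. All lie on the minus strand and are written 5′ to 3′ in the direction of the gene, up to the base before the annotated gene. Capitals mark the ETS-type hexamer AGGAAG, which reads CTTCCT where it lies on the other strand. The windows are chr14:31168642-31168891 for Stab1, chr10:87008026-87008192 for Stab2, chr8:3720652-3720901 for Clec4g and chr5:75978459-75978705 for Kdr.
Stab1: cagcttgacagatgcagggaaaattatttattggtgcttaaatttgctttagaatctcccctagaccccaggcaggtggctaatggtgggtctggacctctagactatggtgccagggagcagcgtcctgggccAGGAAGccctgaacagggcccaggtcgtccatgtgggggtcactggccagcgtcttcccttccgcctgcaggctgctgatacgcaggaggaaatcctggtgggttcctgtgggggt
Stab2: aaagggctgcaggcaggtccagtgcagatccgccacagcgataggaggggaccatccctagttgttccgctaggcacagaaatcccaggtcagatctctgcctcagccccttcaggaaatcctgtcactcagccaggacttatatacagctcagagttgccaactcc
Clec4g: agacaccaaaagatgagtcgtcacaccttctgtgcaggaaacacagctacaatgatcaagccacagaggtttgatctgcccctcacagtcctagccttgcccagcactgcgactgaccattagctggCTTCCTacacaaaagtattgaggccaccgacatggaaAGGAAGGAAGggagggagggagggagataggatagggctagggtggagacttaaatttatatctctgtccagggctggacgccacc
Kdr: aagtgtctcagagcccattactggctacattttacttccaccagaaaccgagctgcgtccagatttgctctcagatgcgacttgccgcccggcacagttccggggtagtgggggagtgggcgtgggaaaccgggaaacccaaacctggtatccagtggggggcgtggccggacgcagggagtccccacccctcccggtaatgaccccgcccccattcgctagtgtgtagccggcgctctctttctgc
Both strands were searched for motifs of factor families active in endothelium. These were the ETS hexamer above, GATAA for the GATA family, TGCTGAC for the MAF family and AACAAT for the SOX family. The ETS hexamer occurred 3 times in the Clec4g window, with 2 of the matches overlapping, and 1 time in the Stab1 window. It was not found in the Stab2 or Kdr windows, and the other 3 motifs were found in none of the 4. Among 32851 promoter windows of 250 bases, 29.5% held the ETS hexamer, 22.6% the GATA motif, 3.8% the MAF motif and 9.4% the SOX motif. The Stab2 window is shorter, and among windows of its 167 bases 20.1%, 17.0%, 2.3% and 6.9% held these motifs. Such matches describe letters, not bound sites.

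All 6 scavenger and identity markers rose after acetaminophen in FBXL5ΔDC livers, and none of the 10 members passed the test in control livers. Stab1, Stab2, Lyve1, Clec4g, Oit3 and Fcgr2b were higher in every treated than in every untreated FBXL5ΔDC liver, as was Bmp2, whose lowest treated and highest untreated livers were almost level. A change was called at an adjusted p below 0.05 by edgeR's quasi-likelihood test, with Benjamini-Hochberg adjustment over all tested genes. In this comparison 15.0% of all tested genes were called higher and 15.1% lower, and 24.2% had treated livers all above untreated ones. The median log2 change of the 10 members was 0.64 in FBXL5ΔDC livers, against 0.02 over all genes. Unlike calls in the 2 genotypes do not show that the responses differ. The test of that, the interaction given below, called 0 members by edgeR and 2 by DESeq2. Without treated control replicate 3 edgeR called 5. Whole livers were measured, so more endothelial cells and more RNA per cell cannot be told apart in any of these changes.

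Stab1, which takes up modified lipoproteins and secreted proteins and is also made by some macrophages, was at 33.98, 28.1 and 30.1 CPM in untreated and 57.4, 65.2 and 98.2 CPM in treated FBXL5ΔDC livers. Its lowest treated liver lay well above its highest untreated liver. The log2 change was 1.26 (SE 0.21, 2.397-fold, edgeR adjusted p = 0.00104). Control livers held 34.4, 36.2 and 26.6 CPM before and 32.8, 32.5 and 46.3 CPM after acetaminophen. Replicates 1 and 2 stayed within the untreated range and replicate 3 lay above it, and the log2 change was 0.20 (edgeR adjusted p = 0.629).

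Stab2, the main hyaluronan clearance receptor of the sinusoid, was at 28.05, 24.97 and 27.7 CPM in untreated and 48.4, 45.6 and 63.1 CPM in treated FBXL5ΔDC livers. The treated livers stood clear of the untreated ones, with a log2 change of 0.96 (SE 0.20, 1.95-fold, edgeR adjusted p = 0.00359). In control livers it was at 31.2, 25.4 and 22.7 CPM before and 23.9, 19.5 and 33.9 CPM after treatment, ranges that overlap on both sides. The log2 change there was -0.03 (95% interval -0.47 to 0.40, edgeR adjusted p = 0.949).

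Lyve1, a hyaluronan receptor of sinusoidal and lymphatic endothelium, had the largest change of the 10 members. It was at 7.59, 5.25 and 4.499 CPM in untreated and 26.3, 30.9 and 55.4 CPM in treated FBXL5ΔDC livers, so that the lowest treated liver held several times the highest untreated one. Its log2 change was 2.70 (SE 0.55, 6.49-fold, edgeR adjusted p = 0.00408). Control livers were at 5.703, 2.98 and 8.85 CPM before and 7.39, 15.4 and 30.5 CPM after acetaminophen. Treated control replicate 1 fell within the untreated range and replicates 2 and 3 above it. The log2 change of 1.60 (95% interval 0.44 to 2.76) had an unadjusted p of 0.0114 and an edgeR adjusted p of 0.0793, which did not pass. Lyve1 was the only member that DESeq2 called in control livers, at a DESeq2 adjusted p of 0.00882, and it was also called by edgeR without treated control replicate 1, at an edgeR adjusted p of 0.0278.

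**Figure D1:**
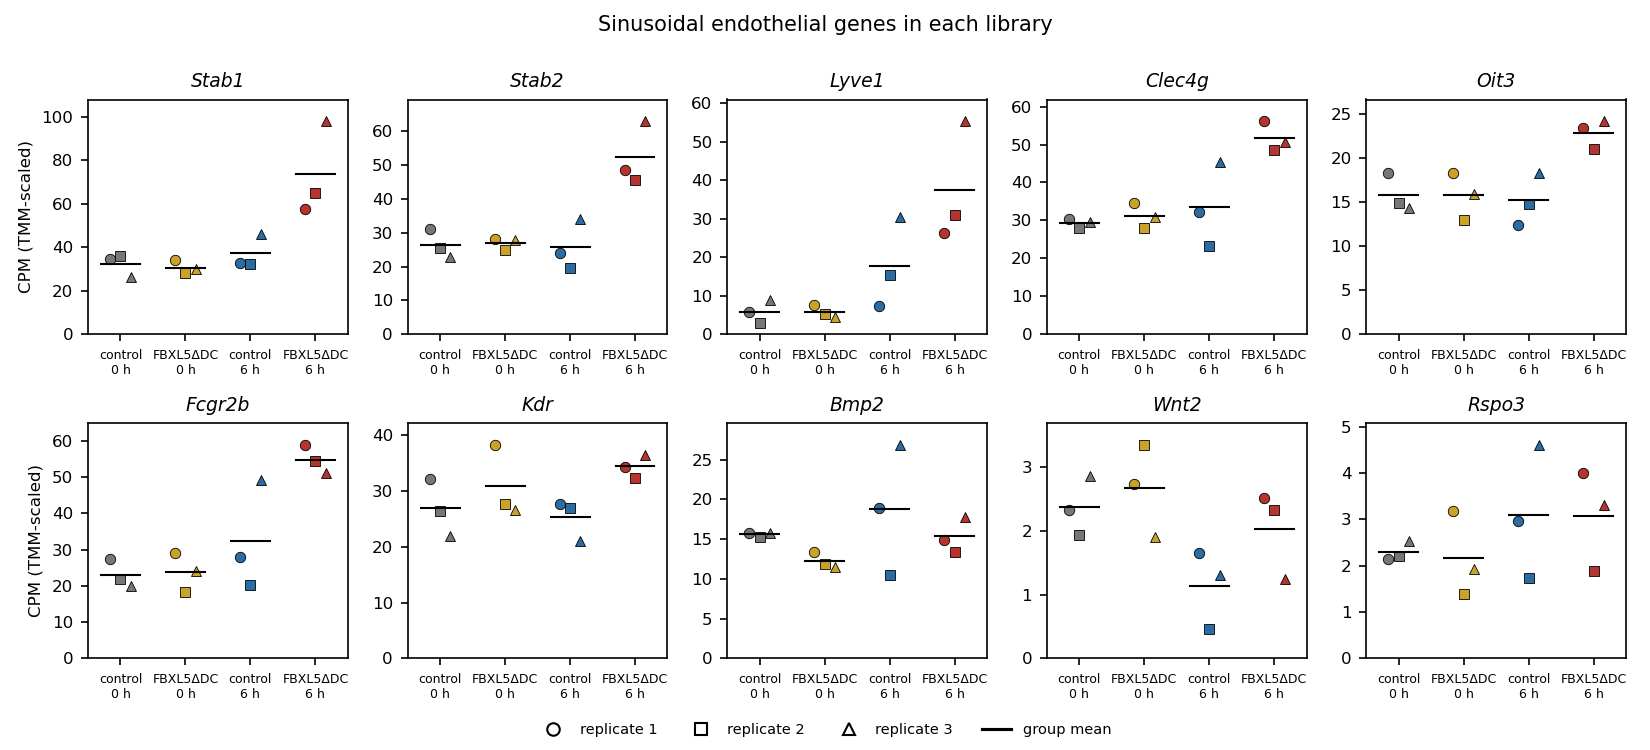
CPM of the 10 members in each of the 12 livers, 1 panel per gene, with points for livers (shape gives the replicate) and a bar for the group mean. The 6 scavenger and identity markers sit higher in all 3 treated FBXL5ΔDC livers than in any untreated one, while Kdr, Bmp2, Wnt2 and Rspo3 do not separate in this way to the same degree.

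Clec4g was at 34.6, 27.9 and 30.8 CPM in untreated and 56.2, 48.5 and 50.6 CPM in treated FBXL5ΔDC livers. The 3 treated values lay close together and above all untreated ones. The log2 change was 0.74 (SE 0.19, 1.66-fold, edgeR adjusted p = 0.0122), and the call was lost without untreated FBXL5ΔDC replicate 2 (edgeR adjusted p = 0.0564). In control livers Clec4g was at 30.3, 27.95 and 29.7 CPM before and 32.3, 23.4 and 45.4 CPM after treatment, with replicate 3 again the highest and replicate 2 below all untreated livers. Its log2 change was 0.20 (edgeR adjusted p = 0.592), and -0.08 without replicate 3.

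Fcgr2b, the inhibitory Fc gamma receptor that takes up immune complexes in the sinusoid and is also made by B cells and macrophages, was at 29.1, 18.2 and 24.1 CPM in untreated FBXL5ΔDC livers. After treatment it was at 58.9, 54.5 and 51.1 CPM, with no overlap. The log2 change was 1.20 (SE 0.28, 2.301-fold, edgeR adjusted p = 0.00621). Control livers went from 27.3, 21.8 and 20.1 CPM to 27.9, 20.1 and 49.1 CPM, where replicates 1 and 2 were near the untreated range and replicate 3 near the treated FBXL5ΔDC livers. The log2 change of 0.49 was not called (edgeR adjusted p = 0.301).

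Oit3, a secreted zona pellucida domain protein used as a marker of this endothelium, changed least among the 6. It was at 18.3, 12.97 and 15.9 CPM in untreated and 23.4, 20.98 and 24.2 CPM in treated FBXL5ΔDC livers. The groups did not overlap, and the log2 change was 0.54 (SE 0.18, edgeR adjusted p = 0.0371). That call was lost in 8 alternatives, which were scaling by total counts, no filter on low counts, and leaving out untreated control replicate 2, untreated FBXL5ΔDC replicate 2 or 3, or any treated FBXL5ΔDC liver, and adjusted p ran from 0.014 to 0.158 when single libraries were left out. Control livers were at 18.2, 14.9 and 14.3 CPM before and 12.4, 14.7 and 18.3 CPM after acetaminophen, which overlap.

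Kdr, the main signalling receptor for VEGF-A, did not pass in any comparison. It was at 32.1, 26.5 and 22.04 CPM in untreated control, 38.3, 27.6 and 26.6 CPM in untreated FBXL5ΔDC, 27.7, 27.05 and 21.1 CPM in treated control and 34.4, 32.4 and 36.5 CPM in treated FBXL5ΔDC livers. Treated FBXL5ΔDC livers lay above all control livers but overlapped the untreated FBXL5ΔDC livers, of which replicate 1 was the highest of the 12. The log2 change with acetaminophen was 0.16 in FBXL5ΔDC livers (95% interval -0.23 to 0.54, edgeR adjusted p = 0.551) and -0.09 in control livers (95% interval -0.48 to 0.30, edgeR adjusted p = 0.83).

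Other genes were taken from a list of VEGF ligands and receptors that includes Kdr, of which 14 of 15 were tested. The list also holds Tek, Angpt1, Dll4 and Sema3a, which are not VEGF ligands or receptors. Flt1 and Tek are counted again among the general endothelial genes below. In FBXL5ΔDC livers 4 rose and 1 fell, with a median log2 change of 0.24, against 15.0% of all tested genes called higher and 15.1% lower. Flt1, the decoy-like VEGF receptor, rose by a log2 change of 1.64, the coreceptor Nrp2 by 1.04 and the angiopoietin receptor Tek by 1.01 (edgeR adjusted p = 0.00131, 0.00905 and 0.00787). Vegfb fell by 0.77 on the log2 scale (edgeR adjusted p = 0.0397), a call lost without any 1 of the 6 untreated livers or without treated FBXL5ΔDC replicate 1 or 3. In control livers 0 rose and 0 fell by edgeR, against 6.36% and 4.20% of all genes, and 5 had an unadjusted p below 0.05, against 24.7%. DESeq2 called 1 lower, and edgeR called 1 higher and 1 lower without treated control replicate 2.

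The ligand Vegfa was at 146, 110.5 and 98.3 CPM in treated control and 50.7, 75.04 and 60.5 CPM in treated FBXL5ΔDC livers. Every treated FBXL5ΔDC liver lay below every treated control liver. The log2 difference was -0.93 (SE 0.18, edgeR adjusted p = 0.0126), and the call was lost without treated control replicate 1, without treated FBXL5ΔDC replicate 1 and in a fit of these 2 groups alone. Untreated livers were at 87.2, 93.9 and 78.1 CPM in controls and 77.5, 85.6 and 66.9 CPM in FBXL5ΔDC mice, and the change with acetaminophen was 0.45 in control and -0.30 in FBXL5ΔDC livers on the log2 scale, neither of which passed.

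Bmp2 was at 15.7, 15.3 and 15.8 CPM in untreated control and 13.4, 11.8 and 11.5 CPM in untreated FBXL5ΔDC livers. It was the only member whose untreated groups did not overlap, all 3 FBXL5ΔDC livers being lower. The log2 difference was -0.35 (95% interval -0.90 to 0.21, edgeR adjusted p = 1), and 5.80% of all tested genes showed the same order of libraries. After acetaminophen Bmp2 was at 18.9, 10.5 and 26.9 CPM in control and 14.9, 13.4 and 17.8 CPM in FBXL5ΔDC livers. The control livers were the more scattered, with replicate 2 the lowest and replicate 3 the highest of all 12 livers. The log2 change was 0.27 in control (edgeR adjusted p = 0.589) and 0.33 in FBXL5ΔDC livers (95% interval -0.23 to 0.88, edgeR adjusted p = 0.374), and without control replicate 3 the control change was -0.08.

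Genes that receive or report the BMP signal moved both ways. Of 25 tested BMP receptors, coreceptors and targets, 6 rose and 5 fell in FBXL5ΔDC livers, with a median log2 change of -0.09, and 1 rose and 1 fell in control livers. Over all tested genes 15.0% rose and 15.1% fell in FBXL5ΔDC livers, and 6.36% and 4.20% in control livers. Without any 1 of the untreated FBXL5ΔDC livers, or without treated FBXL5ΔDC replicate 1 or 3, 3 fell. The control counts were 2 higher and 2 lower without treated control replicate 3, 3 higher and 1 lower without replicate 2 and in the DESeq2 test, 2 higher and 1 lower without replicate 1, and 1 higher and none lower without any 1 untreated control liver. Id1, a general BMP target, was at 4.49, 1.87 and 2.13 CPM in untreated and 10.6, 14.2 and 22.5 CPM in treated FBXL5ΔDC livers. The treated livers were all higher (log2 change 2.48, SE 0.38, edgeR adjusted p = 6.09e-04). Id3 rose in both genotypes, by 1.71 in control and 2.68 in FBXL5ΔDC livers on the log2 scale (edgeR adjusted p = 0.00603 and 2.01e-04). Its control call was lost in a fit of the 2 control groups alone. The BMP antagonist gene Fst rose in FBXL5ΔDC livers, at a log2 change of 3.95 (edgeR adjusted p = 0.00186).

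Atoh8, Hjv, Hamp2, Neo1 and Tmprss6 were the 5 that fell. Atoh8, a BMP-responsive transcription factor gene, was at 27.02, 24.9 and 26.3 CPM in untreated and 2.104, 1.71 and 2.55 CPM in treated FBXL5ΔDC livers, a fall by 3.62 on the log2 scale (edgeR adjusted p = 4.99e-04). Hjv, the BMP coreceptor hemojuvelin, fell by 1.71 and the hepcidin gene copy Hamp2 by 1.56 on the same scale (edgeR adjusted p = 0.00724 and 0.0443). The call of Hamp2 was lost without treated control replicate 1 and without any 1 of the 6 FBXL5ΔDC livers. Hamp, the hepcidin gene itself, was at 216, 140.2 and 128 CPM in untreated and 424, 485 and 155 CPM in treated control livers. In FBXL5ΔDC livers it went from 214, 193 and 204 CPM to 114, 216 and 141 CPM. Treated control replicates 1 and 2 were the highest of the 12, while replicate 3 lay within the untreated range. Neither change passed (log2 1.13, edgeR adjusted p = 0.0802 in control and log2 -0.38, edgeR adjusted p = 0.495 in FBXL5ΔDC livers), but the control change was called by DESeq2 (DESeq2 adjusted p = 0.0143) and by edgeR without treated control replicate 3 (log2 1.49, edgeR adjusted p = 0.004). Hamp and Hamp2 are related gene copies, so reads may be shared between them, and how the counting split such reads is not known.

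Wnt2 was among the lowest members, at 2.32, 1.94 and 2.86 CPM in untreated control and 2.74, 3.35 and 1.91 CPM in untreated FBXL5ΔDC livers. After acetaminophen it was at 1.65, 0.457 and 1.31 CPM in control and 2.52, 2.33 and 1.25 CPM in FBXL5ΔDC livers. All 3 treated control livers lay below all untreated control livers, an order shared by 13.4% of tested genes, while the FBXL5ΔDC groups overlapped. The log2 change was -1.06 in control livers (95% interval -2.02 to -0.09, edgeR adjusted p = 0.158) and -0.39 in FBXL5ΔDC livers (95% interval -1.34 to 0.56, edgeR adjusted p = 0.551).

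Rspo3, which in liver is made by central vein endothelium and also by stellate cells, was at 2.15, 2.21 and 2.54 CPM in untreated control and 3.17, 1.38 and 1.92 CPM in untreated FBXL5ΔDC livers. Treated livers were at 2.97, 1.73 and 4.605 CPM in controls and 4.01, 1.89 and 3.31 CPM in FBXL5ΔDC mice. The 4 groups overlapped throughout. The log2 change was 0.43 in control (edgeR adjusted p = 0.586) and 0.51 in FBXL5ΔDC livers (95% interval -0.38 to 1.40, edgeR adjusted p = 0.392).

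Many receptors and targets of the Wnt pathway fell, while neither ligand was called. Of 26 tested genes, 16 fell and 0 rose in FBXL5ΔDC livers (median log2 change -1.03), and 5 fell and 1 rose in control livers (median -0.56, against 0.03 over all genes). Without treated control replicate 1, 9 fell in control livers. In FBXL5ΔDC livers 2 rose without treated control replicate 2 or 3, and DESeq2 called 3 higher. Between genotypes at 6 h, 10 were lower in FBXL5ΔDC livers and none higher. Without treated control replicate 3, 11 were lower and 2 higher, 6 were lower without treated control replicate 1 or treated FBXL5ΔDC replicate 1, and a fit of these 2 groups alone called none. Axin2, a direct beta-catenin target, was at 8.59, 6.89 and 1.38 CPM in treated control and 0.246, 1.198 and 0.313 CPM in treated FBXL5ΔDC livers, from 12.98, 9.29 and 12.3 and 15.8, 11.04 and 9.76 CPM before. It fell by 4.39 on the log2 scale in FBXL5ΔDC livers (edgeR adjusted p = 0.00132). The change of -1.03 in control livers did not pass (edgeR adjusted p = 0.342).

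Lgr5, the R-spondin receptor of pericentral hepatocytes, was at 10.002, 6.99 and 6.33 CPM in untreated FBXL5ΔDC livers and under the detection floor of a mean of 12 counts per library in the treated ones. It was at least 41.7-fold lower there (edgeR adjusted p = 9.58e-04). Treated control livers held 1.94, 1.46 and 0.0602 CPM, with replicate 3 far below the other 2, from 5.49, 5.58 and 3.33 CPM untreated. Glul, the glutamine synthetase of the hepatocytes around the central vein, fell in both genotypes, by 2.49 in control and 2.42 in FBXL5ΔDC livers on the log2 scale (edgeR adjusted p = 2.57e-04 and 1.20e-04). Oat, another pericentral enzyme, was at 389.7, 365 and 146 CPM in treated control and 44.3, 34.5 and 29.997 CPM in treated FBXL5ΔDC livers.

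**Figure D2:**
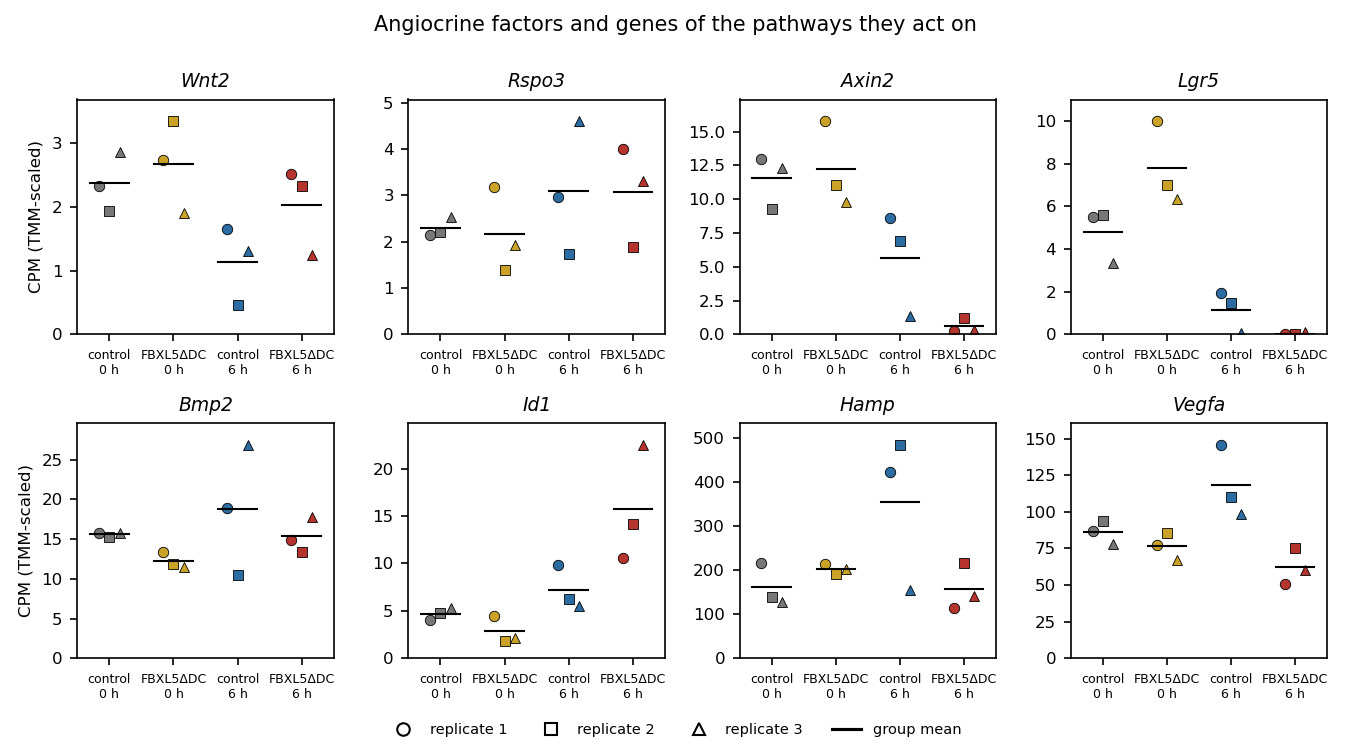
CPM of the angiocrine genes Wnt2, Rspo3 and Bmp2 beside the Wnt readouts Axin2 and Lgr5, the BMP readouts Id1 and Hamp, and Vegfa in each of the 12 livers, with points for livers (shape gives the replicate) and a bar for the group mean. Axin2 and Lgr5 fall to 0.246 to 1.2 CPM and 0 to 0.0894 CPM in treated FBXL5ΔDC livers. Wnt2 and Rspo3 are between 1.25 and 4.01 CPM there, and their changes were not called, which does not show that they were unchanged.

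Treated FBXL5ΔDC livers were then set against treated control livers, a comparison that shares its FBXL5ΔDC libraries with the acetaminophen comparison above. Stab1 and Stab2 were called higher, 2 of 10 members, against 1.35% of all genes called higher and 4.51% called lower. Scaling by total counts changed these counts of genes to 157 higher and 1774 lower, against 238 and 793, and still called both. Stab1 differed by a log2 of 0.98 (SE 0.21, edgeR adjusted p = 0.0203) and Stab2 by 1.02 (SE 0.20, edgeR adjusted p = 0.0147). All 3 treated FBXL5ΔDC livers lay above all 3 treated control livers for 6 members, Stab1, Stab2, Clec4g, Oit3, Fcgr2b and Kdr, an order that 9.74% of tested genes showed. The median log2 difference of the 10 was 0.69, against -0.01 over all genes. Since the members were chosen with earlier results of these data known, these shares and medians are descriptions.

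The other members did not pass at 6 h. The log2 difference was 1.08 for Lyve1 (edgeR adjusted p = 0.244), 0.76 for Fcgr2b (0.121), 0.62 for Clec4g (0.0771), 0.59 for Oit3 (0.071) and 0.45 for Kdr (0.156). The angiocrine factors differed by 0.84 for Wnt2 (0.29), -0.29 for Bmp2 (0.556) and -0.01 for Rspo3 (0.99), with 95% intervals of -0.13 to 1.80, -0.84 to 0.27 and -0.90 to 0.87. DESeq2 called 4 members, Clec4g and Oit3 besides the stabilins. Single libraries moved the count from 0 to 6. Both calls were lost without treated control replicate 1, without treated control replicate 2 and without treated FBXL5ΔDC replicate 3, and in a fit of these 2 groups alone. Without treated control replicate 3, Lyve1, Clec4g, Oit3 and Fcgr2b were called as well, at log2 differences of 1.72, 0.90, 0.75 and 1.19.

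The interaction, the FBXL5ΔDC response minus the control response, tests whether the responses differ. No member passed by edgeR, where 0.290% of genes did, and 3 members had an unadjusted p below 0.05, against 14.5% of genes. These were Stab1 (1.06, unadjusted p = 0.0033, edgeR adjusted p = 0.132), Stab2 (0.99, unadjusted p = 0.00386, edgeR adjusted p = 0.135) and Oit3 (0.60, unadjusted p = 0.034, edgeR adjusted p = 0.303). DESeq2 called Stab1 and Stab2, at DESeq2 adjusted p of 0.036 and 0.0441. Without treated control replicate 3 edgeR called 5 members, Stab1, Stab2, Clec4g, Oit3 and Fcgr2b, at log2 values from 0.76 to 1.25, while over all genes the calls went from 51 to 2533. Leaving out any other library gave no member call.

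No member was called between untreated livers of the 2 genotypes by edgeR or DESeq2, and edgeR called 0% of all genes. None of the members had an unadjusted p below 0.05, against 2.64% of all genes. The median log2 difference of the members was 0.01. After Bmp2, the widest difference was that of Kdr, at 0.20 (95% interval -0.19 to 0.58). In control livers, where edgeR called none of the members, 10.6% of all genes passed with acetaminophen (6.36% higher and 4.20% lower), and Lyve1 and Wnt2 had an unadjusted p below 0.05, against 24.7% of all genes. The median over members there was 0.20, against 0.03 over all genes, and no member was called there without treated control replicate 3.

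**Figure D3:**
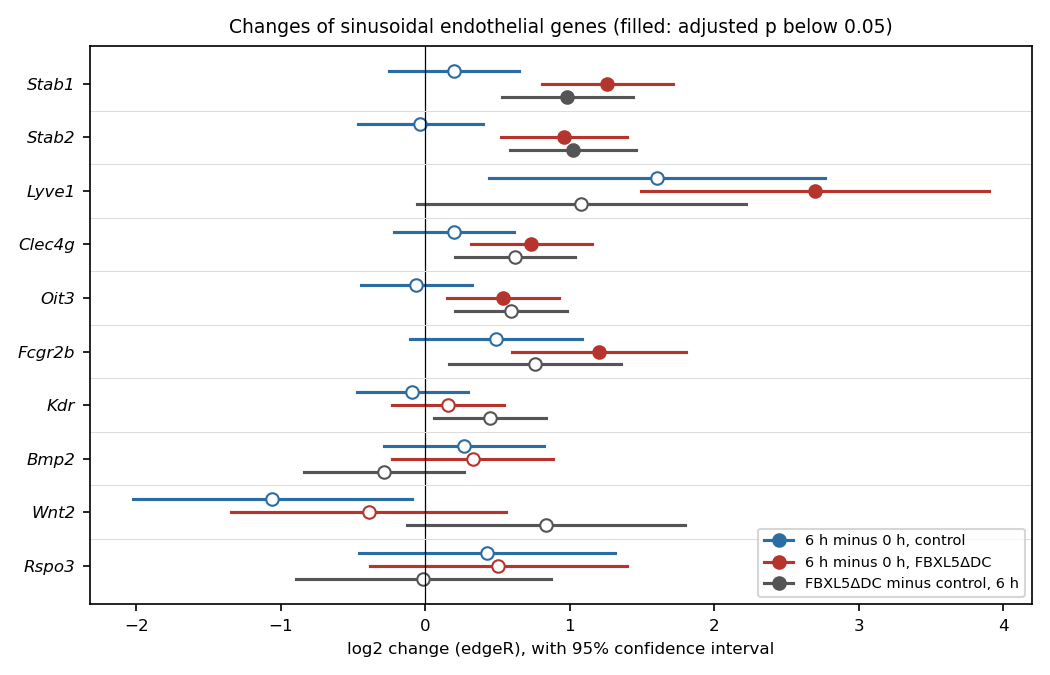
Log2 change of each member with acetaminophen in each genotype and between genotypes at 6 h, with points for the edgeR estimate, filled where the adjusted p was below 0.05, and lines for the 95% interval. Lyve1 has the largest estimate with acetaminophen in both genotypes, at 2.70 and 1.60, and the widest interval among the markers.

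The general endothelial genes moved with the markers. Of 25 genes of endothelium of any kind, 16 rose and 0 fell in FBXL5ΔDC livers, with a median log2 change of 1.10. Their summed level was 173 to 228 CPM in untreated and 418 to 489 CPM in treated FBXL5ΔDC livers. In control livers it was 166 to 229.6 CPM and 198 to 367 CPM, and edgeR called none, with 8 at an unadjusted p below 0.05 and 3 called by DESeq2. Leaving out treated control replicate 1 or 2 gave 2 or 3 higher calls there. Pecam1, an adhesion molecule of all endothelium, was at 10.5, 8.02 and 9.37 CPM in untreated and 23.6, 32.8 and 28.95 CPM in treated FBXL5ΔDC livers (log2 change 1.61, edgeR adjusted p = 0.00131). Cdh5, the endothelial cadherin, rose there by 1.56 (edgeR adjusted p = 0.00379), and the transcription factor gene Sox7 by 3.48 (edgeR adjusted p = 0.00214). Between genotypes at 6 h, 1 of the 25 was higher and 1 lower in FBXL5ΔDC livers, and 13 were higher without treated control replicate 3. None was called without untreated control replicate 2, untreated FBXL5ΔDC replicate 3, treated control replicate 1 or 2, or treated FBXL5ΔDC replicate 2 or 3, and without treated FBXL5ΔDC replicate 1 only 1 lower call was made. The summed level of the 10 members was 162 to 209 CPM in untreated and 316 to 402 CPM in treated FBXL5ΔDC livers, and 165 to 199.6 and 165 to 277 CPM in control livers.

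Each member was also set against the mean log2 CPM of those 25 genes in the same liver, which none of the members belongs to. Those 25 genes had a median log2 change of 1.10 in FBXL5ΔDC and 0.29 in control livers. A member that rose less than their mean therefore comes out lower. After acetaminophen Lyve1 stood higher against them by 1.58 in FBXL5ΔDC livers, where all treated livers were higher, and by 1.14 in control livers, where they overlapped. Stab1 and Fcgr2b differed less, at 0.15 for both in FBXL5ΔDC livers and -0.17 and 0.04 in control livers, with overlapping livers throughout. Stab2 was at -0.13 in FBXL5ΔDC livers and at -0.42 in control livers, where the treated livers were all lower. Clec4g stood at -0.34 in FBXL5ΔDC livers, and Oit3 at -0.53 in FBXL5ΔDC and -0.43 in control livers, with the treated livers all lower in each case.

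Kdr, Bmp2 and Wnt2 were lower against the general endothelial genes in all treated FBXL5ΔDC livers, and in control livers only Wnt2 was. Their own log2 changes in FBXL5ΔDC livers were 0.16, 0.33 and -0.39, none of them called, while the general genes rose. Kdr stood at -0.90 in FBXL5ΔDC livers, all treated livers lower, and at -0.45 with overlap in control livers. Bmp2 stood at -0.75 in FBXL5ΔDC livers without overlap and at -0.20 with overlap in control livers. Wnt2 was lower in every treated liver of both genotypes, at -1.49 in FBXL5ΔDC and -1.57 in control livers. Rspo3 was at -0.56 and -0.04, with overlap in both. These are differences of log2 values with 3 livers a group and no test, and an exact permutation test of 3 against 3 could not go below p = 0.1. The share of all genes with such an order of livers against this reference was not computed. With Pecam1, Cdh5 and Tie1 alone as the reference, Stab1 and Fcgr2b in FBXL5ΔDC livers both turned from 0.15 to -0.13, and Fcgr2b in control livers from 0.04 to -0.12, with overlap in each case. Stab2 in FBXL5ΔDC livers went from -0.13 to -0.41, with the treated livers then all lower.

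**Figure D4:**
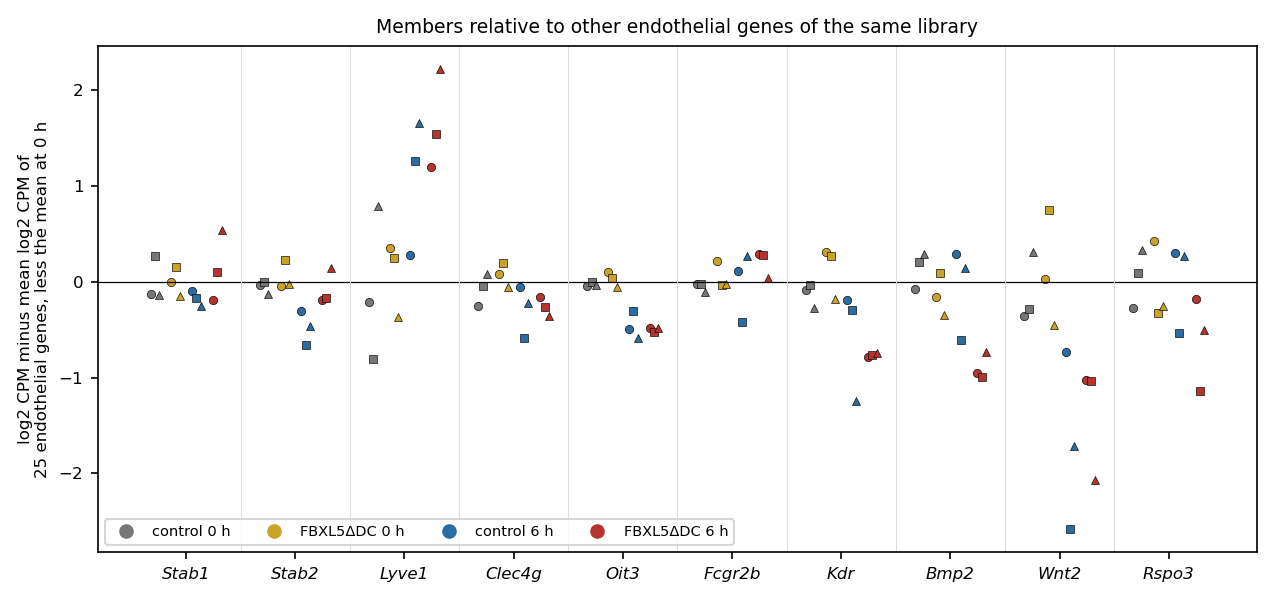
Log2 CPM of each member minus the mean log2 CPM of 25 general endothelial genes in the same liver, with 1 point per liver (shape gives the replicate). From each value the mean of the untreated livers of both genotypes together was taken off, so points also carry any difference between untreated genotypes. Relative to those genes Lyve1 moves up after acetaminophen, while Wnt2, and in FBXL5ΔDC livers Kdr and Bmp2, move down.

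Other markers of sinusoidal endothelium were mixed. Of 16 such genes, 8 rose and 1 fell in FBXL5ΔDC livers (median log2 change 0.63), 4 were higher and 1 lower in treated FBXL5ΔDC than in treated control livers, and in control livers edgeR and DESeq2 called none, with 4 at an unadjusted p below 0.05 and 2 called higher by edgeR without treated control replicate 2. Leaving out single libraries gave 5 to 8 higher calls with acetaminophen in FBXL5ΔDC livers, fewest without untreated FBXL5ΔDC replicate 2. Between genotypes the higher count was 7 without treated control replicate 3 and 1 without treated replicate 1 or 2 of either genotype. It was 2 without untreated control replicate 2, untreated FBXL5ΔDC replicate 3 or treated FBXL5ΔDC replicate 3. Thbd, thrombomodulin, was at 1.93, 2.85 and 3.903 CPM in untreated and 61.8, 60.6 and 68.5 CPM in treated FBXL5ΔDC livers (log2 change 4.46, edgeR adjusted p = 0.0126), a call lost without untreated FBXL5ΔDC replicate 1 or 2. Treated control livers held 5.04, 3.004 and 65.99 CPM, so that replicate 3 reached the treated FBXL5ΔDC level and replicates 1 and 2 did not. Cd300lg, a sialomucin of endothelium, was at 7.61, 7.16 and 10.2 CPM in treated control and 19.9, 19.3 and 17.5 CPM in treated FBXL5ΔDC livers, without overlap (log2 difference 1.18, edgeR adjusted p = 0.00708). That call held with any 1 library left out but was lost in a fit of these 2 groups alone. Maf, a transcription factor gene tied to sinusoidal identity, went the other way, at 35.7, 28.5 and 31.5 CPM in untreated and 18.4, 12.2 and 19.7 CPM in treated FBXL5ΔDC livers, and fell by 0.93 on the log2 scale (edgeR adjusted p = 0.00252).

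Genes of larger vessels and of capillarised endothelium, 14 of 15 tested, included 5 that rose and 1 that fell in FBXL5ΔDC livers, with a median log2 change of 1.30. Leaving out untreated FBXL5ΔDC replicate 2, treated replicate 1 or treated replicate 2 left 3 calls in all. The basement membrane collagens Col4a1 and Col4a2 rose by 2.13 and 1.77 (edgeR adjusted p = 0.00309 and 0.00367), and stellate cells make these collagens too. Sox17, a factor of arterial endothelium, fell by 2.22 on the log2 scale (edgeR adjusted p = 0.0361), a call lost without any 1 of the untreated FBXL5ΔDC livers or without treated FBXL5ΔDC replicate 1 or 2. Vwf, the clotting factor stored in endothelium of larger vessels, was at 3.83, 4.28 and 4.44 CPM in untreated and 10.04, 10.5 and 10.7 CPM in treated FBXL5ΔDC livers, without overlap. The log2 change of 1.32 did not pass with all libraries (edgeR adjusted p = 0.0917). It was called by DESeq2 (DESeq2 adjusted p = 0.0404) and in an edgeR fit of these 2 groups alone. Without treated control replicate 1 or 3 edgeR called it too (edgeR adjusted p = 0.0012 without replicate 3). Angpt2, the antagonist of TIE2, was the only gene of the list that edgeR called in control livers (log2 change 2.34, edgeR adjusted p = 0.0273), and no gene of the list was called there without any 1 of the 3 untreated control livers. The call of Angpt2 was also lost without treated control replicate 1 and in a fit of the 2 control groups alone. DESeq2 called 5 genes higher, and edgeR called 4 higher without treated control replicate 2, and 2 higher and 1 lower without replicate 3.

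Most adhesion and activation genes rose. Of 19 tested, 16 rose and 1 fell in FBXL5ΔDC livers (median log2 change 3.27, or 2.76 with the 3 genes that were under the detection floor in 1 group set at their bound), and 4 rose and 1 fell in control livers (median 1.28). The control count of higher genes was 9 without treated control replicate 1, 7 without replicate 2 and 3 without untreated control replicate 2. Many of these genes are also made by hepatocytes and leukocytes. Sele, E-selectin, which is specific to endothelium, was at 0 in all 6 untreated livers. Treated controls held 0, 0.247 and 1.08 CPM, and treated FBXL5ΔDC livers 1.704, 2.07 and 1.39 CPM. Vcam1 was at 8.696, 17.05 and 21.04 CPM in treated control and 39.6, 29.3 and 45.99 CPM in treated FBXL5ΔDC livers, without overlap (log2 difference 1.30, edgeR adjusted p = 0.0426). Atf3, a stress-induced transcription factor gene, was at 671, 584 and 416 CPM in treated control and 57.8, 123 and 19.3 CPM in treated FBXL5ΔDC livers, all lower (log2 difference -3.06, edgeR adjusted p = 0.0353). These were the 2 calls of the list between genotypes at 6 h. Both were lost with no filter on low counts and in a fit of these 2 groups alone, and that of Atf3 also with a replicate block. That of Vcam1 was lost in 9 of 12 fits that left out 1 library, all but those without untreated control replicate 1 or 3 or treated control replicate 3. That of Atf3 was lost in 8, all but those without untreated control replicate 3, untreated FBXL5ΔDC replicate 1, treated control replicate 3 or treated FBXL5ΔDC replicate 2. Without treated control replicate 3, 9 genes of the list were higher and 1 lower.

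Of 20 other angiocrine factors, 9 rose and 1 fell in FBXL5ΔDC livers (median log2 change 1.33, or 1.27 with 2 genes at that bound), and 4 rose and 0 fell in control livers. Leaving out single libraries gave 6 to 9 higher calls in FBXL5ΔDC livers, and 2 in control livers without untreated control replicate 2 or 3. Hgf, the hepatocyte growth factor that endothelium and stellate cells make, was at 1.86, 2.04 and 1.28 CPM in untreated and 10.7, 9.68 and 14.7 CPM in treated FBXL5ΔDC livers (log2 change 2.75, edgeR adjusted p = 2.33e-04). Jag1, a Notch ligand, rose in both genotypes by 1.54 and 1.47 (edgeR adjusted p = 0.00676 in control and 0.0026 in FBXL5ΔDC livers). Its control call was lost in a fit of the 2 control groups alone. Cxcl12, a chemokine, fell by 1.46 on the log2 scale in FBXL5ΔDC livers (edgeR adjusted p = 0.00201).

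Markers of other cells that make some of the members moved too. Kupffer cells, the resident macrophages, can carry Stab1 and Fcgr2b, and 7 of their 15 markers rose and 0 fell in FBXL5ΔDC livers (median log2 change 0.71). That count was 4 without untreated FBXL5ΔDC replicate 3 and 3 without treated replicate 1. Their summed level was 279 to 362 CPM in untreated control, 364 to 403 CPM in untreated FBXL5ΔDC, 392 to 485 CPM in treated control and 514 to 648 CPM in treated FBXL5ΔDC livers, and no marker was at 0 in any group. Stellate cells can carry Rspo3, and 12 of their 17 markers rose and 0 fell in FBXL5ΔDC livers, with sums of 179 to 283, 128 to 218, 221 to 399 and 423 to 503 CPM in the same order of groups, and no marker at 0. Lymphatic endothelium shares Lyve1. Of 7 tested genes of the lymphatic list, which itself holds Lyve1, 3 rose, Lyve1, Reln and Flt4, and Prox1, which hepatocytes also express, fell. Sums for this list were 134 to 149.7, 115 to 132, 132 to 147 and 119 to 209.8 CPM, and 1 of its genes was at 0 in the untreated groups. Of 11 tested lymphocyte markers, B cells among them, edgeR and DESeq2 called none in either genotype, and none had an unadjusted p below 0.05. Sums for this list were only 2.42 to 3.13, 1.62 to 3.73, 2.03 to 4.10 and 2.13 to 3.27 CPM. In the same order, 3, 5, 5 and 6 of its genes were under the detection floor, so these counts could hardly show a change. The part of these cells in the members' changes was not tested.

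The genes whose levels ran most like those of 4 members were named by Pearson's r of log2 CPM over the 12 livers, among 12275 genes with a mean of at least 1 CPM. For Stab2 these were Pqlc2 (r = 0.954), Lnx2 (0.954) and Birc3 (0.952), all of which held their highest values in treated FBXL5ΔDC livers. For Bmp2 they were Prr5l (0.846), Rnf113a2 (0.839) and Map3k3 (0.835), for Wnt2 Nsmf (0.918), Fam160b1 (0.9004) and Zfp418 (0.884), and for Rspo3 Toe1 (0.919), Tmem132e (0.879) and Gm10145 (0.861). The 12 livers share group and library effects, so these are descriptions.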

How the data were processed

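Whole-liver RNA from 12 mice was sequenced. The submitters used Trim Galore 0.6.6 for trimming and HISAT2 2.2.1 for alignment and name build mm10, as given in the submitters' processing notes. The authors deposited 1 table of estimated counts per gene without normalisation. The counting program and strand setting are not given in the sources used here. The values were whole numbers, but 26.5% to 28.5% of values from 1 to 40 were multiples of 4, against 25% for an even spread, so the fragments behind a count are not known. The plan assumed raw counts, and since all values were whole its test was not changed. No per-sample column was left unused. Gene identifiers matched GENCODE vM21 (GRCm38) for 98.1% with and 99.5% without version numbers. No pair of libraries was identical.

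The members and the gene lists were chosen with earlier results of these data known. Counts were filtered with filterByExpr by group, scaled with TMM factors (0.855 to 1.14) and fitted with edgeR 4.0.16 in R 4.3.3 by robust quasi-likelihood, on a design of 4 group means that left 8 residual degrees of freedom. The 5 contrasts were acetaminophen in each genotype, genotype at each time, and the interaction. Adjusted p-values are Benjamini-Hochberg over 17585 genes, called below 0.05. CPM used TMM-scaled library sizes, and log2 CPM a prior count of 2. A group mean under 12 counts per library was taken as the detection floor, which covers counting error only. The fit was tested on simulated counts whose spread between replicates was set lower than that of these data. That test does not show how the fit performs at the wider spread seen here. Named were the members, Fbxl5 and Itgax, 9 standing readouts, up to 3 called genes per list, direction and contrast with the largest change, and the 3 genes most correlated with each of 4 members. Some genes the rule allows were not described.

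Alternatives were DESeq2 1.42.0 size factors and upper quartile scaling, DESeq2's own test, no filter on low counts, a replicate block, a fit of only the 2 groups compared, each library left out, and another endothelial reference. Scaling by total counts was added after seeing the data. Promoter windows came from RefSeq (GRCm38.p6). Results for 2 genes of the lists are not reported here.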

Additional observations from a re-analysis of the deposited data

Results flagged for a closer look

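Among the Wnt genes set beside Wnt2 and Rspo3, 5 passed the test of the interaction, all lower, and the 3 with the largest values are given here. They are beta-catenin target genes of pericentral hepatocytes. The number of Wnt genes passing was 0 without any 1 of the 6 untreated livers or without treated FBXL5ΔDC replicate 2 or 3, 1 without treated control replicate 1 or 2, 3 without treated FBXL5ΔDC replicate 1, and 11 without treated control replicate 3. Oat had an interaction of -3.25 on the log2 scale (edgeR adjusted p = 0.0293), from 593, 920.3 and 1078 CPM untreated to 389.7, 365 and 146 CPM treated in control livers and from 966, 1144 and 870.4 to 44.3, 34.5 and 29.997 CPM in FBXL5ΔDC livers. Slc1a2, the glutamate transporter, had a fitted interaction of -7.26 (edgeR adjusted p = 0.0493), and Sp5, a transcription factor gene, of -7.71 (edgeR adjusted p = 0.0483). Slc1a2 was at 12.3, 11.1 and 1.099 CPM in treated control and 0.123, 0 and 0.0596 CPM in treated FBXL5ΔDC livers, and Sp5 at 0.568, 0.593 and 0.1204 CPM and at 0 in all 3 treated FBXL5ΔDC livers. Both are under the detection floor there, so their fitted values depend on the prior count and are not bounds. In all 3 genes treated control replicate 3 was the lowest of its group. No member passed the interaction test by edgeR with all libraries, while DESeq2 called Stab1 and Stab2, and edgeR called 5 members without treated control replicate 3.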

How the results depend on the processing

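Of 788 recomputed member changes, 734 kept their direction and their side of the threshold, 17 lost a call, 15 gained one and 22 changed sign, and none of the 152 that concern a called change changed sign. The sign changes were in Stab2, Clec4g, Oit3, Kdr, Bmp2 and Rspo3, all in changes that were not called. With DESeq2 the members called were 1 with acetaminophen in control livers, 4 between genotypes at 6 h and 2 for the interaction, against 0, 2 and 0, and the genes called over the whole table were 2883, 2143 and 686, against 1857, 1031 and 51, with 14 at 0 h against 0. Fits of only the 2 groups compared called 402 genes in control livers, 3 at 0 h and 6 at 6 h, and no member at 6 h. Scaling by total counts, chosen after seeing the data, called 1931 genes at 6 h and 19 for the interaction, and moved the median of all genes to -0.15 at 0 h and -0.23 at 6 h. Upper quartile scaling called 20 for the interaction. Rspo3 between genotypes at 6 h was -0.01 and became 0.0060 with DESeq2 size factors, 0.0318 with upper quartile scaling and 0.00616 in the DESeq2 test.

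Leaving out single libraries gave 0 to 1 members called in control livers, 4 to 6 in FBXL5ΔDC livers, 0 to 6 between genotypes at 6 h and 0 to 5 for the interaction. The genes called over the table ran from 763 to 2170 in control livers, 250 to 4249 between genotypes at 6 h and 1 to 2533 for the interaction, the highest of the last 2 without treated control replicate 3. Log2 changes in control livers ran from -0.28 to 0.13 for Stab2, -0.0759 to 0.40 for Clec4g, -0.22 to 0.0629 for Oit3, -0.22 to 0.0581 for Kdr and -0.0837 to 0.55 for Bmp2. Differences at 6 h ran from -0.57 to 0.0623 for Bmp2 and -0.30 to 0.38 for Rspo3, and interactions from -0.23 to 0.41 for Bmp2 and -0.21 to 0.48 for Rspo3. The cause of these differences between settings was not tested.

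Replicate numbers were checked for pairing: over 18 same-numbered pairs the correlation of deviations ran from -0.061 to 0.044. Differently numbered pairs reached 0.062. No pairing by number was seen, but such a check cannot exclude a shared litter. With the replicate block the members called stayed at 6 in FBXL5ΔDC livers, 2 between genotypes at 6 h and 0 otherwise, and the interaction called 28 genes against 51. Against Pecam1, Cdh5 and Tie1 alone, 7 of 20 relative values moved by more than the spread between replicates. The low counts of Wnt2 and Rspo3 limit what could be seen of them, and intervals cover a log2 change of 0 in every comparison of Rspo3.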

Other observations

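Of the 17 stellate cell markers, 12 rose after acetaminophen in FBXL5ΔDC livers, with a median log2 change of 1.43. Pdgfra, a growth factor receptor of stellate cells, was at 3.26, 1.76 and 1.91 CPM in untreated and 14.9, 16.4 and 18.1 CPM in treated FBXL5ΔDC livers (log2 change 2.83, edgeR adjusted p = 0.00324). In treated control livers it was at 3.34, 2.52 and 14.5 CPM, with replicate 3 at the FBXL5ΔDC level. Ngfr, the low-affinity neurotrophin receptor, rose in both genotypes, by 1.66 in control and 1.95 in FBXL5ΔDC livers on the log2 scale (edgeR adjusted p = 0.00622 and 8.49e-04).

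Of 9 bile duct markers tested, 4 rose in FBXL5ΔDC livers, and 2 rose without any 1 of the untreated FBXL5ΔDC livers or without treated FBXL5ΔDC replicate 1 or 2. Sox9, which hepatocytes can switch on as well, was at 7.07, 3.44 and 4.797 CPM in untreated and 89.7, 203 and 40.5 CPM in treated FBXL5ΔDC livers (log2 change 4.44, edgeR adjusted p = 7.52e-04), and at 4.602, 5.66 and 4.02 CPM and 18.4, 16.3 and 43.04 CPM in control livers (log2 change 2.44, edgeR adjusted p = 0.0252). The control call was lost without treated control replicate 3 (log2 change 1.87, edgeR adjusted p = 0.102) and without any 1 of the untreated control livers. Inhbb, a subunit of activins that endothelium and hepatocytes can make, was at 1.17, 1.15 and 1.91 CPM in untreated and 36.9, 33.5 and 48.2 CPM in treated FBXL5ΔDC livers, while treated control livers were at 1.95, 8.78 and 49.03 CPM.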
